A study of Rattus norvegicus with 6 samples.

Results

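Otx2, Msx1, Lmx1a and Cdkn1c form a small group of patterning and cell-cycle regulators of the choroid plexus, the folded epithelium in the brain ventricles that makes cerebrospinal fluid. They are 4 of the 15154 genes that could be named on the array, and were taken as every non-control probe whose accession carries 1 of these symbols today. This gave 6 of 30367 probes, with 1 probe each for Otx2 and Msx1 and 2 each for Lmx1a and Cdkn1c. RNA came from the hippocampus of male Wistar rats, aged 2 months at surgery and kept on 12 h of light and 12 h of dark, with tissue taken 2 weeks after the operation under ketamine and medetomidine. Of the 6 animals, 3 were orchidectomized (both testes removed) and 3 were sham-operated controls, with intact testes, and each RNA was hybridised to its own 1-colour Agilent array. The labels call the 3 per group biological replicates, and p-values measure only the spread between them. Each value is a log2 intensity after subtraction of its array's 75th percentile, so that 1 unit is a doubling, and levels of different probes are not compared.

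OTX2 is a homeodomain transcription factor of the forebrain and midbrain that is also needed, in mouse, to form and maintain choroid plexus epithelium, from which the protein is secreted into the cerebrospinal fluid. LMX1A is a LIM homeodomain factor of the roof plate and cortical hem, the dorsal midline signalling centres next to which the choroid plexus arises, and also of midbrain dopaminergic progenitors. MSX1 is a homeodomain factor switched on by BMP signals in the same midline tissue. CDKN1C (p57Kip2) is an imprinted inhibitor of cyclin-dependent kinases that holds cells out of the cycle as they differentiate. None of the 4 genes is regarded as a marker of hippocampal neurons.

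The array labelled sham 2 stood apart from the other 5 and went against its tissue label. Markers of glutamatergic hippocampal neurons were lower there by over 1 log2 unit in 12 of 12 detected genes, with a median difference of -6.34, and 5 of the 12, among them the vesicular glutamate transporter gene Slc17a7, were not well above background. Choroid plexus markers other than the members were higher by over 1 log2 unit in 22 of 23, with a median of 8.36. The mean log2 value of those markers was 4.23 on that array and -4.29 to -3.22 on the other 5. The other 5 arrays had all 12 neuronal markers well above background. Results are therefore given for the array labelled sham 2 against the other 5, without a test because it is a single array. Orchidectomized is set against sham with and without that array. It was alone on its slide, so for it slide and sample cannot be told apart. Only sham 3 shared its scan day, and all 3 orchidectomized arrays and sham 1 were scanned on the other day.

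Promoters from RefSeq on the GRCr8 assembly are shown for the 2 members that matched, Lmx1a at chr13:82367683-82367982 and Msx1 at chr14:77185552-77185851, both on the plus strand, because the members were high together on 1 array. Each runs from 250 bases before to 50 bases after the gene's start, 5′ to 3′. Capitals mark CCAAT boxes (CCAAT) and GC boxes (GGGCGG) on either strand.
Lmx1a: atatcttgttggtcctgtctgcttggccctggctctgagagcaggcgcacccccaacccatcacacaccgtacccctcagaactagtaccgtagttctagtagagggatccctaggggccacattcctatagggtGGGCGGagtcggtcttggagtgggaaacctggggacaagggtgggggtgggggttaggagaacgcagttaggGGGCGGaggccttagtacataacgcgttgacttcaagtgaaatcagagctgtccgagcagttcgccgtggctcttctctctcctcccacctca
Msx1: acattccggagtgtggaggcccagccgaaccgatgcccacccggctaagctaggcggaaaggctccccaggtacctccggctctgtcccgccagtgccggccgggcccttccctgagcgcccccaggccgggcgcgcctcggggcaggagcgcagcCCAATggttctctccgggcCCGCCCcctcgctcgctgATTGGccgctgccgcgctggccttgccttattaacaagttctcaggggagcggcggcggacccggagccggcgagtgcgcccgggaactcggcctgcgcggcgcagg
The Lmx1a window held 2 GC boxes and no CCAAT box, and the Msx1 window held 2 CCAAT boxes and 1 GC box. Of 33469 rat promoters of this length, 37.5% held a CCAAT box and 33.1% a GC box. The OTX-type motif TAATCC, the MSX-type motif TAATTG and the homeodomain motif TAATTA were searched on both strands, and none of these letters occurs in either window. They occur in 7.17%, 8.20% and 5.36% of all promoters. The Msx1 window was 73.0% G and C and the Lmx1a window 57.7%, with a median of 51.7% over all promoters. These matches describe the sequence and were not tested as binding sites.

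Otx2 had log2 values of -2.62, -2.37 and -4.25 on orchidectomized 1 to 3, -1.74 on sham 1, 5.08 on the array labelled sham 2 and -4.49 on sham 3. The array labelled sham 2 was far above the rest, and its spot was saturated. Against the mean of the other 5 arrays this was a difference of at least 289-fold. The probe was well above background on all 6 arrays.

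Lmx1a was read by a brighter and a dimmer probe. The brighter probe had -5.52, -5.47 and -6.42 on orchidectomized 1 to 3, -5.40 on sham 1, 3.03 on the array labelled sham 2 and -6.70 on sham 3. It was well above background on every array and saturated on none, and the array labelled sham 2 lay 8.56 log2 units above the median of the others, or 377-fold. The dimmer probe was well above background on the array labelled sham 2 alone, at -0.34, at least 177-fold over the others' mean. It did not pass the brightness filter of the group comparison, so Lmx1a rests there on the brighter probe.

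Msx1 was spotted 10 times on every array, which gives its values a technical error. It had -0.997, -1.02 and -1.20 on orchidectomized 1 to 3, -1.03 on sham 1, 5.18 on the array labelled sham 2 and -0.98 on sham 3, with an SD between spots of 0.03 to 0.14. All 10 spots were saturated on the array labelled sham 2, and 1 of them was left out as an outlier. The signal was at least 74.7-fold over the mean of the other 5, which lay within 0.22 log2 units of each other.

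Cdkn1c was measured by 2 probes for different transcript accessions of the gene. The brighter had -0.64, -0.68 and -1.25 on orchidectomized 1 to 3, -0.81 on sham 1, 4.98 (saturated) on the array labelled sham 2 and -1.05 on sham 3. That is at least 58.5-fold above the mean of the other 5. The dimmer probe was saturated nowhere, with -2.17, -2.17 and -2.50, then -2.34, 3.78 and -2.39 in the same order. The array labelled sham 2 lay 6.12 log2 units above the median of the others on it, or 69.7-fold. Both probes thus had their only high value on the same array.

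**Figure D1:**
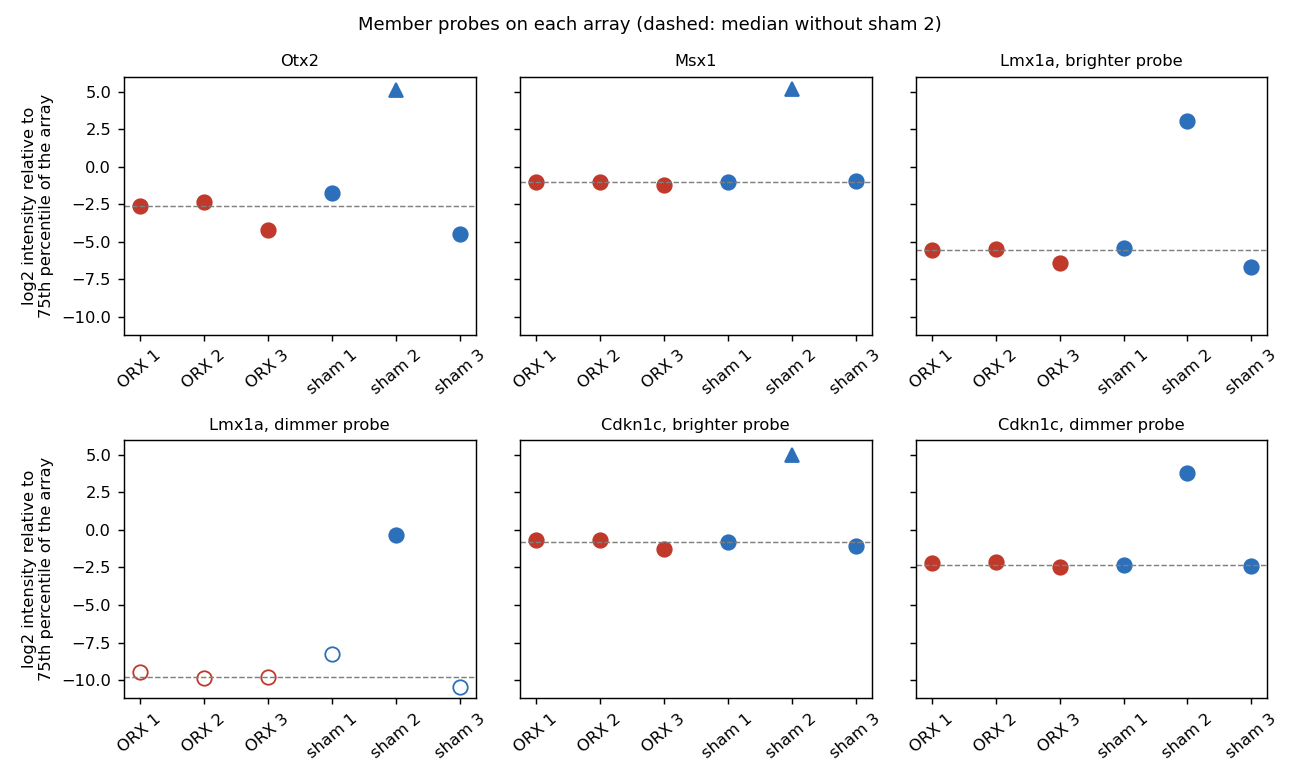
Log2 intensity minus the array's 75th percentile (vertical axis) of the 6 member probes on the 6 arrays (horizontal axis; ORX, orchidectomized, red; sham, blue). Triangles are saturated spots, open circles are values not well above background, and the dashed line is the median without the array labelled sham 2. All 6 probes are high on the array labelled sham 2, between -0.34 and 5.18.

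Against the median of the other 5 arrays, all 4 members were higher by over 1 log2 unit on the array labelled sham 2, where 22.2% of 13778 detected genes were. All 6 member probes were above every one of the other 5 arrays, which 38.3% of 27363 detected probes were. By probe the differences ran from 5.80 to 9.46. They exceeded 1, 2 and 5 log2 units in all 6, against 19.4%, 8.7% and 1.22% of detected probes. No member probe was lower by over 1 log2 unit, as 23.8% of probes were. Each member probe's difference was larger than that of 99.3% of detected probes or more. The order of the members by size cannot be read from these values because 3 of the 4 main probes were saturated. The median over all detected genes was 0.04, a value that the scaling of each array largely fixes.

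**Figure D2:**
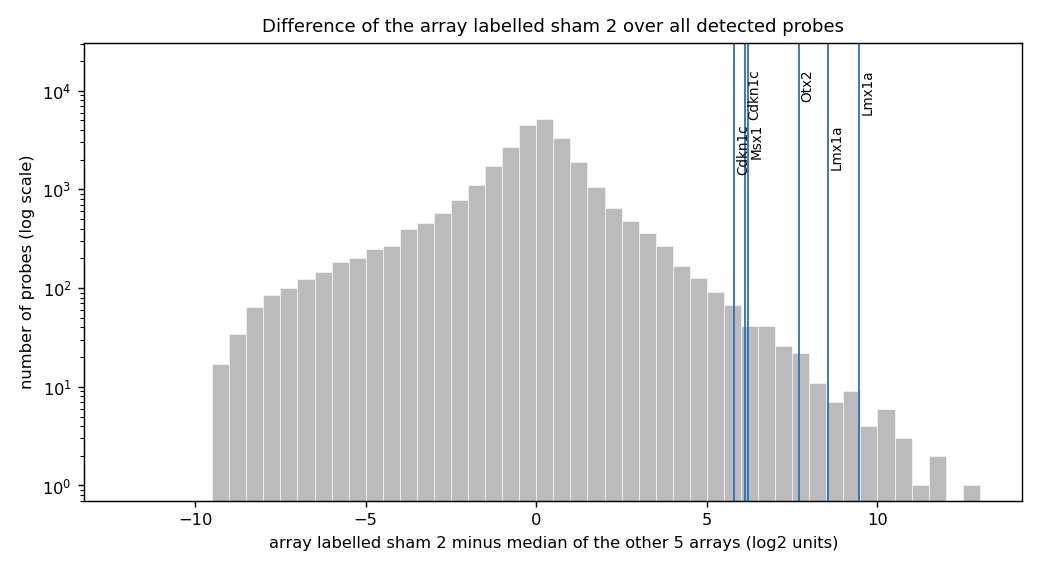
Number of probes (vertical axis, log scale) by the difference between the array labelled sham 2 and the median of the other 5 arrays (horizontal axis, log2 units), over 27363 detected probes. Blue lines mark the 6 member probes, which lie between 5.80 and 9.46 in the upper tail.

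Relatives of the members differed among themselves on that array. Of 15 detected homeobox genes and genes that work with OTX2, 5 were higher by over 1 log2 unit and 4 lower, with a median of -0.36. The shares over all detected genes were 22.2% higher and 24.2% lower. Msx2, the paralog of Msx1, had 0.02 on the array labelled sham 2 and -4.67 to -4.21 on the others. Otx1, the paralog of Otx2, had 1.84 there and 1.36 to 2.00 on the others, so its value lay inside their range. Crx, the photoreceptor relative of Otx2, had -7.02 there and -6.76 to -5.96 elsewhere, and Emx2, a cortical and hippocampal patterning gene, had 0.79 against 1.54 to 1.72. The other 4 of the 5 higher genes, named after their values were seen, were Msx3, Mitf, Six3 and Hesx1. Msx3 differed by 6.35, and Mitf, a factor of another class that acts with OTX2 in the eye, by 3.32. Six3 was well above background on only 2 of the other 5 arrays and Hesx1 on none, and Hesx1 was at least 3.81-fold brighter. The 4 lower genes, also named after their values were seen, were Lhx9, Lhx2, Dlx1 and Gbx2. Lhx2 differed by -5.82 and Dlx1 by -5.16. Lhx9 and Gbx2 were not well above background there, at least 28.7-fold and 1.13-fold dimmer. Gbx2 was well above background on only 2 of the other 5 arrays.

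Genes of the midline signals that pattern the choroid plexus lay on both sides of 0. In the list of BMP, WNT and roof plate genes 11 of 35 were higher by over 1 log2 unit on the array labelled sham 2 and 9 were lower, with a median of 0.14. All detected genes had shares of 22.2% and 24.2%. The BMP ligand gene Bmp7 had 2.97 there and -2.84 to -1.86 on the other 5. Bmp6 had -0.61 against -3.72 to -3.37, and Bmp4 had 0.20 against -1.70 to -0.66. Among BMP target genes Id1 differed by 1.29 and Id3 by 0.07. Zic1, a zinc finger gene of the dorsal midline, had -0.23 there, -2.25 on sham 1 and -4.44 to -3.96 on the other 4 arrays. Wnt2b differed by 0.81, and Wnt8b, a ligand of the cortical hem, was well above background on 2 arrays, neither of them the array labelled sham 2.

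Of 12 detected Notch and multiciliation genes, 6 were higher by over 1 log2 unit and 2 lower, beside 22.2% and 24.2% of all detected genes. Foxj1, the motile cilia regulator, differed by 5.86, the ciliation factor Tp73 by 4.37, the receptor gene Notch2 by 3.69 and the cilia gene regulator Rfx2 by 1.37. The 2 lower genes, named after their values were seen, were Hes5 and Notch1. Hes5, a Notch target, was at least 38.0-fold dimmer and not well above background there, and the receptor gene Notch1 differed by -1.93. Hes1, another Notch target named after its value was seen, differed by 1.71 and was among the 6 higher genes. The channel gene Trpm3, which is expressed in choroid plexus, differed by 4.90. Ependymal markers were also high on that array, with 6 of 9 higher by over 1 log2 unit and a median of 4.99. The part of ependymal cells in the members' values was not tested.

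Over all detected genes 22.2% were higher and 24.2% lower by over 1 log2 unit, and other CDK and G1 genes were near these shares. Of 27 detected CDK inhibitor and G1 genes, 6 were higher by over 1 log2 unit and 6 lower, with a median of -0.07 and a highest difference of 2.02. The lowest was Mycn, a proliferation factor gene named after its value was seen, which was not well above background there and at least 51.3-fold dimmer. The sister inhibitor genes Cdkn1a (p21) and Cdkn1b (p27) differed by 0.15 and -0.58, the cyclin genes Ccnd1 and Ccnd2 by 0.34 and 1.65, and the retinoblastoma gene Rb1 by -0.51. Genes of cycling cells were higher by over 1 log2 unit in 7 of 13, with a median of 1.29 and none lower by that much. No test of the difference between Cdkn1c and these genes was possible with a single array.

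Among imprinted genes 11 of 25 were higher by over 1 log2 unit and 8 lower, with a median of 0.15. Shares of 22.2% and 24.2% held over all detected genes. Kcnq1, a potassium channel gene that in mouse lies in the same imprinted domain as Cdkn1c, had 2.84 on the array labelled sham 2 and -3.94 to -3.54 on the others. Phlda2, a placental growth regulator of that domain, had -3.41 there and -2.41 to -1.69 elsewhere. The growth factor gene Igf2 reached saturation there, at least 20.9-fold over the others' mean, while its imprinted neighbour H19 differed by -1.52. Plagl1 and Dlk1 differed by 1.46 and -0.45. Kcnq1 and Phlda2, the genes named from the domain of Cdkn1c, thus lay on opposite sides of 0. They do not show how its other genes are divided.

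Parvalbumin interneurons and their perineuronal nets are described, in mouse, as the cells that take up OTX2 protein secreted by the choroid plexus. All 13 genes of that list were lower by over 1 log2 unit on the array labelled sham 2, where 24.2% of all detected genes were. Pvalb had -2.76 there and 2.51 to 2.71 on the others, Gadd45b differed by -2.88, and Acan, the net proteoglycan gene, was at least 4.38-fold dimmer. Meningeal fibroblast markers, which matter because MSX1 and CDKN1C are also made in connective tissue, were higher by over 1 log2 unit in 10 of 18, with a median of 1.17 and a summed level of 121 against 16.6 to 27.2 on the other arrays. Endothelial and mural markers had a median of 0.12 and a summed level of 36.6 there against 11.2 to 16.0 on the other arrays. The part of these cells in the members' values was not tested, and in bulk RNA fewer cells of a type and less RNA per cell cannot be told apart.

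**Figure D3:**
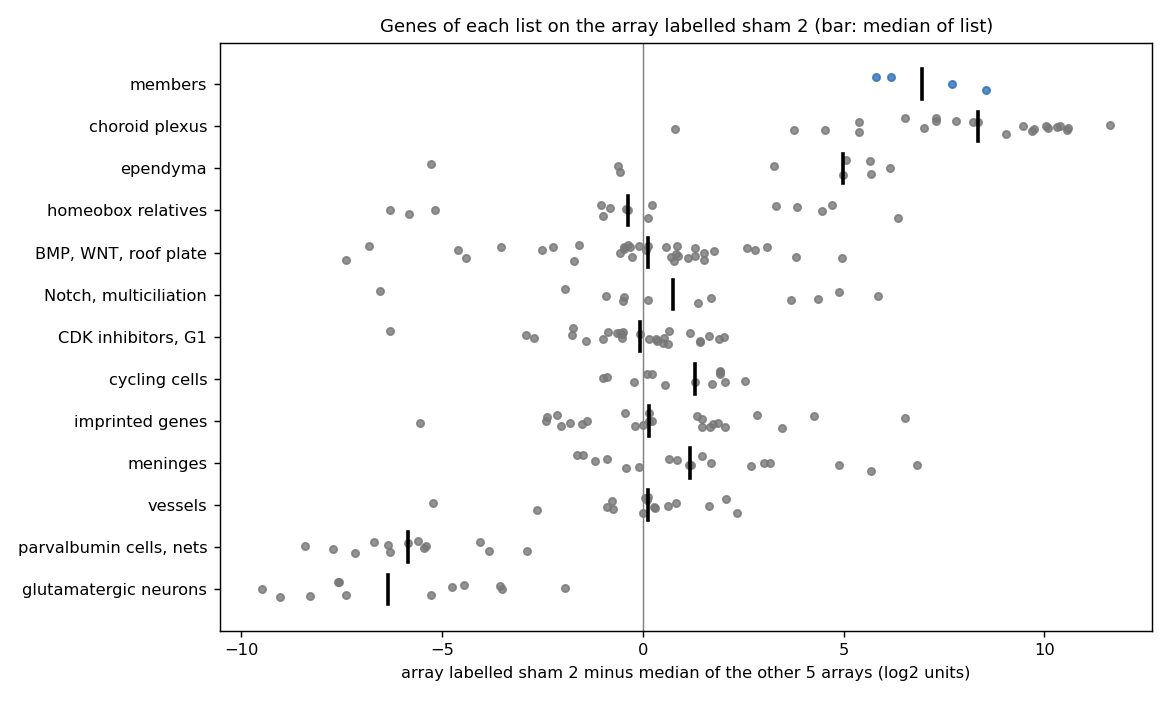
Difference between the array labelled sham 2 and the median of the other 5 arrays (horizontal axis, log2 units) for each detected gene (points) of 13 gene lists (vertical axis), with black bars at list medians. The members lie between 5.80 and 8.56, and list medians run from -6.34 for glutamatergic neurons to 8.36 for choroid plexus.

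Profiles nearest to each member over the 6 arrays were sought among 12264 named genes well above background on the array labelled sham 2, by the root mean square of the log2 difference after each profile was set to its mean on the other 5. The 5 genes nearest to Otx2 were Klk1b3, Lmx1a, Folr1, C8h11orf97 and Car13, at 0.59 to 0.62. Lmx1a, itself a member, was at 0.60, and Folr1, the folate receptor gene of choroid plexus epithelium, also at 0.60. Klk1b3 and Car13 were well above background on none of the other 5 arrays. For Lmx1a the nearest were C8h11orf97, Pla2g5, Aqp1, Abca4 and C1qtnf3, at 0.20 to 0.42, of which Aqp1 encodes the water channel of the choroid plexus. Msx1 was nearest to Tent5a, Pdlim2, Hfe, Kcnq1 and Spag8, at 0.09 to 0.20. Cdkn1c was nearest to Fscn2, Nrn1l, Pdlim2, Mmp2 and Spag8, at 0.09 to 0.18. Pdlim2 and Spag8 were in both of these sets, and C8h11orf97 in those of Otx2 and Lmx1a. At the array labelled sham 2, 3 of the 4 member profiles are limited by saturation.

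On the other 5 arrays the members differed in how much they varied. Otx2 spanned 2.75 log2 units, 6.74-fold between sham 1 and sham 3, and 99.6% of probes well above background on all 5 arrays had a smaller span. The brighter Lmx1a probe spanned 1.31, the brighter Cdkn1c probe 0.61 and Msx1 0.22, with 95.4%, 67.6% and 13.4% of probes below them. Otx2, Lmx1a and Cdkn1c were highest on orchidectomized 1, orchidectomized 2 and sham 1 and lowest on orchidectomized 3 and sham 3, so each surgical group had high and low arrays. Msx1 was lowest on orchidectomized 3 and highest on sham 3. Orchidectomized 3 also had the most outlier spots, 672 against 235 to 313 on every other array. It had the fewest saturated probes, 190 against 336 to 557. Sham 3, the other low array, had 235 and 557. The part of array quality in this spread was not tested.

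The mean log2 value of the choroid plexus list was -3.22, -3.60 and -3.94 on orchidectomized 1 to 3, -3.72 on sham 1 and -4.29 on sham 3. Its 2 lowest arrays were those on which Otx2, Lmx1a and Cdkn1c were lowest. Folr1 was lowest on the same arrays, with -1.34, -2.50 and -3.02 on orchidectomized 1 to 3, -1.69 on sham 1 and -3.32 on sham 3. Kl, the klotho gene, had -5.65, -6.28, -7.41, -6.86 and -7.87 on the same arrays, lower on sham 1 than on orchidectomized 1 and 2. Ttr, the most abundant choroid plexus secreted carrier, had 5.20, 4.87 and 4.36 on the orchidectomized arrays and 3.47 and 2.99 on sham 1 and sham 3, an order by group that Otx2 did not show. Sham 1, where Otx2 was highest, also had the highest mean of several other lists among the 5 arrays. Thalamus and habenula markers averaged -2.37 there against -3.38 to -2.82, Cajal-Retzius markers -3.68 against -5.21 to -4.52, and oligodendrocyte markers 1.97 against 1.48 to 1.66. The mean over all detected named genes was also highest there, at -1.81 against -2.03 to -1.95. The part of choroid plexus or neighbouring tissue in the spread of Otx2 was not tested.

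**Figure D4:**
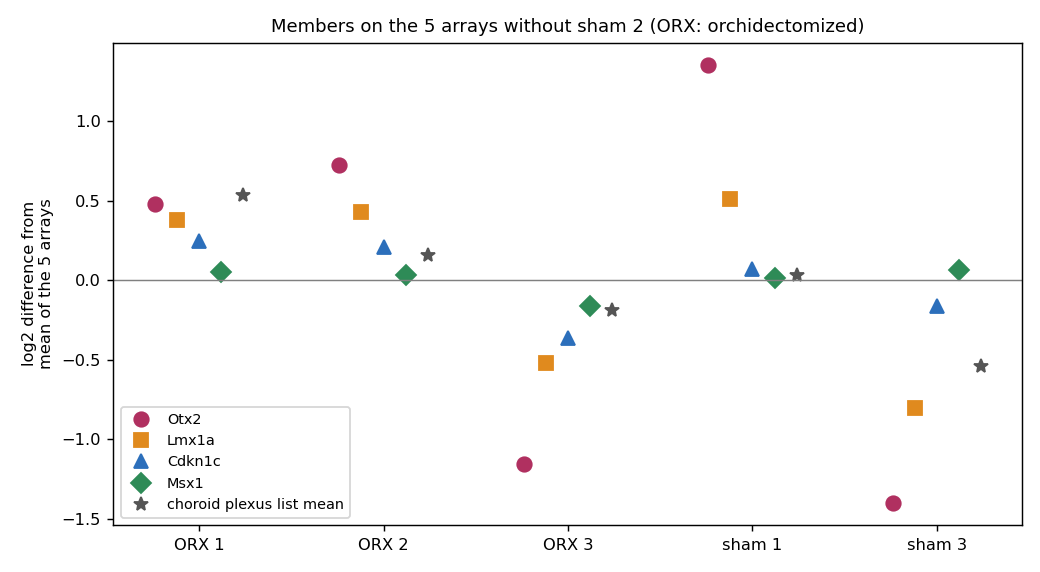
Log2 difference from the mean of the 5 arrays (vertical axis) for the brightest probe of each member and the mean of the choroid plexus list on the 5 arrays without sham 2 (horizontal axis; ORX, orchidectomized). Otx2 has the widest spread, 2.75 log2 units, and Msx1 the narrowest, 0.22.

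The study asked which hippocampal genes differ after orchidectomy, and none of the 4 members passed the test without the array labelled sham 2. For Otx2 the orchidectomized arrays averaged -3.08 ± 1.02 (SD, n = 3) and sham 1 and 3 averaged -3.12 ± 1.95 (SD, n = 2). The difference was 0.04 ± 0.93 (SE), with a limma adjusted p of 0.998. The arrays of the groups interleaved, and the 95% confidence interval of the difference, -2.28 to 2.35, allows a change of up to 5.11-fold upward. Which sham array was used decided its direction, with 1.41 without sham 1 and -1.34 without sham 3. It was also -0.19 without orchidectomized 1 and -0.32 without orchidectomized 2, and 0.62 without orchidectomized 3.

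Lmx1a had -5.81 ± 0.53 (SD, n = 3) and -6.05 ± 0.93 (SD, n = 2), a difference of 0.24 with a 95% confidence interval of -0.93 to 1.41 (limma adjusted p 0.988). Without sham 3 it was -0.41, and without sham 1 it was 0.90. Msx1 had -1.07 ± 0.11 (SD, n = 3) and -1.01 ± 0.04 (SD, n = 2), a difference of -0.07 with an interval of -0.40 to 0.26 (limma adjusted p 0.988). Msx1 was the most closely bounded member, between 0.759-fold and 1.20-fold. Cdkn1c differed by 0.08 on the brighter probe, with an interval of -0.49 to 0.64, and by 0.08 on the dimmer one, with -0.30 to 0.47 (limma adjusted p 0.988 for both). The brighter probe had -0.03, -0.01 and -0.04 without orchidectomized 1, orchidectomized 2 and sham 3 in turn.

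The groups overlapped for all 5 tested member probes, while 16.3% of 25212 tested probes had groups without overlap. In this comparison limma called 0% of the tested probes at an adjusted p under 0.05, and 2.71% had an unadjusted p under 0.05, none of them a member. Between orchidectomized 3 and sham 1, the 1 pair of groups on a shared slide, Otx2 differed by -2.51, Lmx1a by -1.03, Cdkn1c by -0.44 and Msx1 by -0.17. On the first scan day, with the 3 orchidectomized arrays against sham 1, the differences were -1.34, -0.41, -0.04 and -0.04. Both values rest on sham 1 alone.

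**Figure D5:**
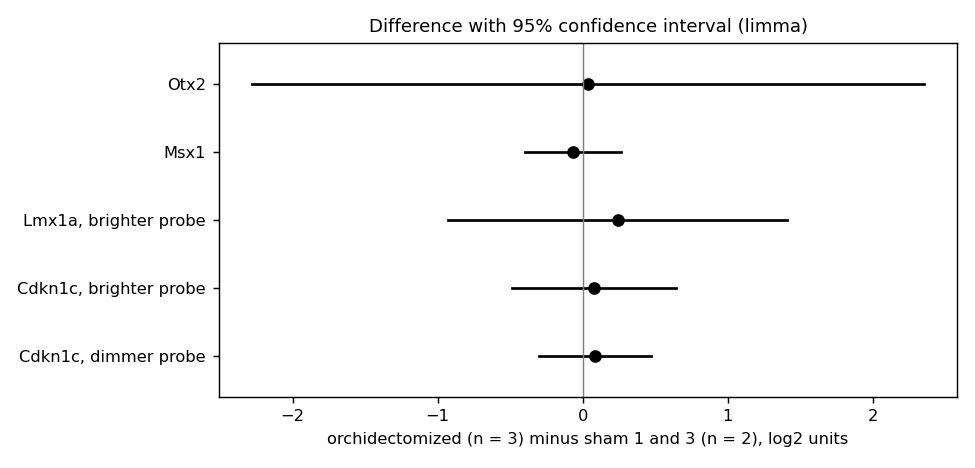
Difference between 3 orchidectomized arrays and sham 1 and 3 (horizontal axis, log2 units) for the 5 tested member probes (vertical axis), with 95% confidence intervals from limma. Every interval includes 0, and that of Otx2 is the widest, from -2.28 to 2.35.

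Related genes gave no called difference between the groups either. In the lists of homeobox relatives, BMP and WNT genes, Notch and multiciliation genes, CDK and G1 genes and imprinted genes, limma called 0 of 10, 0 of 35, 0 of 12, 0 of 26 and 0 of 25 tested genes. Their unadjusted p was under 0.05 for 1, 2, 1, 0 and 0 genes. The homeobox gene was Msx3, named after its value was seen, at -0.62. List medians ran from -0.10 to -0.02, beside -0.03 over all tested genes. Zic1 had a difference of -0.87, which was 0.16 without sham 1 and -1.90 without sham 3. Wnt2b had -0.81, and -1.01 and -0.61 in the same order, with a limma adjusted p of 0.988 over both sham arrays. Wnt8b was well above background on both sham arrays and no orchidectomized one, where it was at least 1.53-fold dimmer (limma adjusted p 0.988). It passed the brightness filter only through the sham arrays, so its direction was not independent of that filter. It is nevertheless 1 of the 2 BMP and WNT genes counted above by unadjusted p. Ccnd2 and Igf2 had 0.36 and 0.38. Choroid plexus markers had a median of 0.21, with 18 of 22 above 0, 0 called and 5 with an unadjusted p under 0.05. Over all 12863 tested genes, 5607 were above 0 and 316 had an unadjusted limma p under 0.05. Choroid plexus genes can vary together, so each is not a separate observation of the groups. Their list means overlapped between groups, with -3.94 on orchidectomized 3 and -3.72 on sham 1. Ttr, whose spot was saturated on orchidectomized 1, had 1.58.

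With all 3 sham arrays, the array labelled sham 2 included, the members had negative differences. The values were -2.70 for Otx2 (SE 2.46), -2.79 for Lmx1a with an SE of 2.59, -2.13 for Msx1 with 1.75 and -1.90 for Cdkn1c with 1.68 (limma adjusted p 0.774 for each). The 95% confidence intervals were wide, from -8.81 to 3.42 for Otx2 and from -6.47 to 2.22 for Msx1. The groups overlapped for all 5 probes, against 8.01% of 24634 tested probes without overlap. Limma called 0% of these probes, and 0.731% had an unadjusted p under 0.05, again no member.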

How the data were processed

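Each array was scanned in 1 channel (Cy3, from 200 ng of total RNA per the labels' protocols) and its spots were quantified in Agilent Feature Extraction 10.5.1.1, per the file headers. The processed signal is an intensity that the scanner software had corrected for background and spatial trend, per the file headers. The authors' deposited log2 table equals the log2 processed signal plus a constant per array, from -0.32 to 0.72, of unknown origin. Its medians were 8.02, 7.94 and 7.91 in the orchidectomized columns and 7.77, 7.62 and 8.04 in the sham columns.

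Control spots (1377 of 44254) and outlier spots were left out, log2 processed signals were averaged per probe, and each array's 75th percentile was subtracted. Flags for saturation or a signal well above background were given to a probe if 50% or more of its spots carried them. Between 23785 and 26173 probes were well above background per array. Precision is limited by the number of arrays. The files carry no gene name column, so accessions were matched without versions to the RefSeq gene table of GRCr8, which named 18004 of 30367 probes. The array design used build rn4, per the file headers, so GRCr8 coordinates are given for the 2 promoter sequences alone.

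Probes well above background on every array of at least 1 group were tested with limma 3.58.1 in R 4.3.3 (lmFit, eBayes, two-sided, Benjamini-Hochberg over all tested probes). The probe with the highest mean stands for a gene. "At least" folds set the bright value against the mean, over the dim arrays, of the probe's own value or, if higher, that array's dimmest signal well above background. Deviations of same-numbered arrays correlated at 0.07, -0.01 and -0.04. The sham array that stood apart was part of this check, and its large differences can mask a pairing. The check therefore cannot show whether replicate numbers paired the animals. On simulated data the fit without the array labelled sham 2 missed most of the smaller changes put in and called most of the larger ones. With all 6 arrays it called no change that was put in. The absence of called probes therefore does not show that no gene differed. The members, gene lists and tests were chosen with earlier results of these data known. Named genes are the members, the genes marked in the lists (Lmx1b, Mki67, Top2a and Foxc1 had no named probe and were not analysed here) and the 5 nearest profiles per member.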

Additional observations from a re-analysis of the deposited data

How the results depend on the processing

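On the array labelled sham 2, all 4 members stayed above the other arrays by over 1 log2 unit under every scaling, reference and threshold tried, and by over 5 log2 units, a threshold added after the data were seen. The smallest difference was 5.69, for Cdkn1c, and that of Lmx1a was 7.12 with normexp background correction. Without the array labelled sham 2, the count of called probes was 2 with quantile normalization, 1 with median scaling, 18 with the authors' deposited values, 6 with array weights and 10 with scan day as a block. It ran from 0 to 251 when each array was left out in turn, with 22 without sham 1 and 251 without sham 3, where a lone sham array is assumed to vary like the others. With all 6 arrays quantile normalization gave a count of 1 and array weights also 1, and the range was 0 to 0 when each array was left out. No member was among the called probes in any of these settings. The cause of these changes was not tested.

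Some member differences changed sign. Those with slide or scan day as a block rest on sham 1 alone, and the cause of the others was not tested. With the replicate block, Otx2 had -0.32 and Cdkn1c -0.01 without the array labelled sham 2, and the block changed no call. Slide as a block leaves orchidectomized 3 against sham 1, where Otx2 had -2.51, Lmx1a -1.03 and Cdkn1c -0.44. Scan day as a block leaves the orchidectomized arrays against sham 1, with -1.34, -0.41 and -0.04. Leaving out 1 array at a time gave -1.34 to 1.41 for Otx2, -0.41 to 0.90 for Lmx1a and -0.04 to 0.27 for Cdkn1c. With all 6 arrays, array weights gave 0.34, 0.37 and 0.18, and leaving out each array gave -4.75 to 0.04, -4.63 to 0.24 and -2.94 to 0.08, where the upper values are those without the array labelled sham 2. Normexp used median spot signals in place of the planned means. Across all tested probes with 6 arrays, the median difference was -0.10 under median scaling.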
